A study of Mus musculus with 16 samples.

Results

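The genes of the cytosolic ribosomal proteins were followed in developing molars of mice that lack the kinase RSK2. Members were taken by symbol: those that start with Rpl or Rps and a digit, and *Rplp0*, *Rplp1*, *Rplp2* and *Rpsa*, without the *Rps6k* kinases and pseudogene symbols. Only probe sets that carry 1 gene symbol were used, 1 probe set a gene. This gave 63 genes among 19938 genes with such a probe set. Of these, 54 encode ribosomal proteins proper, 21 of the small subunit and 33 of the large one. Another 7 are second copies (paralogues), and *Rps19bp1* and *Rps23rg1* carry the prefix but encode a binding partner of the S19 protein and the product of a retrogene. The signal minimum was passed by 62 members, and *Rpl39l*, with a mean log2 signal of 3.99, did not reach it. A further 20 ribosomal protein symbols, *Rpl11*, *Rps16* and *Rps24* among them, shared every probe set with another symbol and were not analysed here.

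RNA came from mandibular molar germs of mouse embryos at E14.5, the cap stage, on Affymetrix Mouse Gene 1.0 ST arrays. The labels give 4 germs per pool. There were 8 pools of wild-type (WT) embryos and 8 of *Rsk2-/Y* embryos, males without RSK2 through excision of exon 2 of the X-linked gene, on a C57Bl6 background with male WT littermates as controls. The sample names fall into series, ABH and AZN, with 4 pools of each genotype in each. The sources used here do not state what ABH and AZN stand for. A whole germ holds dental epithelium and mesenchyme, and fewer cells of a type and less RNA per cell cannot be told apart. *Rps6ka3*, the gene of RSK2, had a median log2 signal of 10.0 in WT (9.61 to 10.2) and of 10.1 in *Rsk2-/Y* (9.74 to 10.4). Whether the probes of this set cover exon 2 is not given in the sources used here, so this level does not check the labels.

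Ribosomal proteins build the small and the large subunit of the ribosome together with ribosomal RNA, in equal numbers of nearly every protein. Their mRNAs are among the most abundant of growing cells and begin with a run of pyrimidines (a TOP tract), through which mTOR signalling sets their translation. Ribosomal protein S6, the product of *Rps6*, is phosphorylated by S6 kinases and by RSK, whose own gene symbols (*Rps6ka*) refer to it. The array measures the amount of mRNA, and neither its translation nor phosphorylation.

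Promoter sequences were found in RefSeq (GRCm38.p6) for 51 of the 63 members. The sequences of 6 members are shown, *Rps6* as the RSK substrate, *Rpl37a*, *Rps19* and *Rps7* as genes higher in AZN, and *Rplp2* and *Rps21* as those lower in AZN. Each line runs 5′ to 3′ along the gene's strand from 80 bases before the RefSeq start to 20 after it. Capitals mark the longest run of C and T near the start where it has at least 6 letters, and the motif CCGGAAG or its reverse complement CTTCCGG, which ETS-family factors such as GABP bind.
Rps6, chr4:86857348-86857447, minus strand: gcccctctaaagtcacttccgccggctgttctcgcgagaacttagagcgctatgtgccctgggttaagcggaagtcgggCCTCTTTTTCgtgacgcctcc
Rpl37a, chr1:72711180-72711279, plus strand: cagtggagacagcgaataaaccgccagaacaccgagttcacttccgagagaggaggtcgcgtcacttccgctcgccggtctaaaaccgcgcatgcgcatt
Rps19, chr7:24884512-24884611, plus strand: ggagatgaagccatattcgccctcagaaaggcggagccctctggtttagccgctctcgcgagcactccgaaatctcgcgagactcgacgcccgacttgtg
Rps7, chr12:28635934-28636033, minus strand: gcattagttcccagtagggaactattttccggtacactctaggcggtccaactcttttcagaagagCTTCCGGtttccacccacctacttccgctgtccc
Rplp2, chr7:141447571-141447670, plus strand: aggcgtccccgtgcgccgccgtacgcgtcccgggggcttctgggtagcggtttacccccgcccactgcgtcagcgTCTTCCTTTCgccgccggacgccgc
Rps21, chr2:180257299-180257398, plus strand: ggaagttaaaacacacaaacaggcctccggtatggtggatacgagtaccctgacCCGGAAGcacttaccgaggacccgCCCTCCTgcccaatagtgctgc

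In *Rps6* a run of 10 pyrimidines began 1 base before the start, and *Rplp2* also held a run of 10. Within 20 bases of the start on either side, 29 of 51 members (56.9%) held a run of at least 6 on the gene's strand. Over the first listed start of 27025 genes the share was 37.4%. The CCGGAAG motif, on either strand within 300 bases, was present in 18 members (35.3%) and in 9.12% of all promoters. A match is a description of these letters and of the annotated start, and no match says only that the letters are not in this window.

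The comparison of *Rsk2-/Y* with WT asked whether the loss of RSK2 changed these mRNAs. None of the 62 members passed the thresholds (false discovery rate under 0.1 and fold change over 1.2, limma), and the share called among all 18834 probe sets tested was 0% higher and 0% lower. With p not adjusted and a limit of 0.05, it was 0 members in either direction, against 1.18% of probe sets higher and 2.87% lower in *Rsk2-/Y*. The methods' t-test gave 1 member lower at that level. The median difference over the members was -0.0099 on the log2 scale, beside -0.015 over all probe sets, and 28 of 62 members lay above 0, as did 40.7% of all probe sets.

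*Rps6* had log2 signals from 12.9 to 13.1 in the 8 WT pools (median 13.01) and in the 8 *Rsk2-/Y* pools (median 13.04). The ranges of the genotypes overlapped almost completely. Its difference was 0.022 with a 95% interval of -0.069 to 0.11. This was also the member that varied least, with an SD of 0.029 within genotype and series.

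The largest differences were small. *Rpl14*, a protein of the large subunit, was at 0.075, *Rps3a1* of the small subunit at 0.062 and *Rps7* at 0.054. On the other side lay *Rps29*, a zinc-binding protein of the small subunit, at -0.099, *Rps14* at -0.092 and *Rpl27a* at -0.059. *Rps29* ranged from 10.9 to 11.6 in WT and from 10.9 to 11.4 in *Rsk2-/Y*, with medians of 11.2 and 11.1. *Rpl14* ranged from 8.54 to 9.10 in WT (median 8.75) and from 8.61 to 9.11 in *Rsk2-/Y* (median 8.92). For both genes the genotypes overlapped. The smallest unadjusted p of any member was 0.168, for *Rpl28*, with an adjusted p of 0.9997 from limma.

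The intervals give the range of change left by this fit, which has no series term, so that the difference between the series counts as spread. For 51 of 62 members the 95% interval of the genotype difference lay inside a 1.2-fold change in either direction, as it did for 76% of all probe sets. For the other 11, *Rplp2*, *Rps21*, *Rpl30*, *Rps29*, *Rpl12*, *Rps3a1*, *Rpl14*, *Rps7*, *Rps19*, *Rps14* and *Rpl37a*, it reached further, at most to -0.41 (*Rps14*) and to 0.35 (*Rplp2*). With the series as a term in the fit 58 of 62 intervals lay inside 1.2-fold, beside 84.2% of all probe sets. The other 4 were *Rpl12*, *Rpl30*, *Rps14* and *Rps29*, and the widest ran from -0.35 to 0.29 (*Rpl12*). In that fit 0 members were called and 0 lay under an unadjusted p of 0.05 in either direction, against 2.11% of probe sets higher and 4.87% lower. Within ABH the median genotype difference of the members was -0.034 (all probe sets -0.030), and within AZN it was 0.024 (all probe sets -0.0027). In ABH pools alone 5 of 62 members (8.06%) were lower at an unadjusted p under 0.05 and none higher, beside 8.61% and 4.38% of all probe sets.

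**Figure D1:**
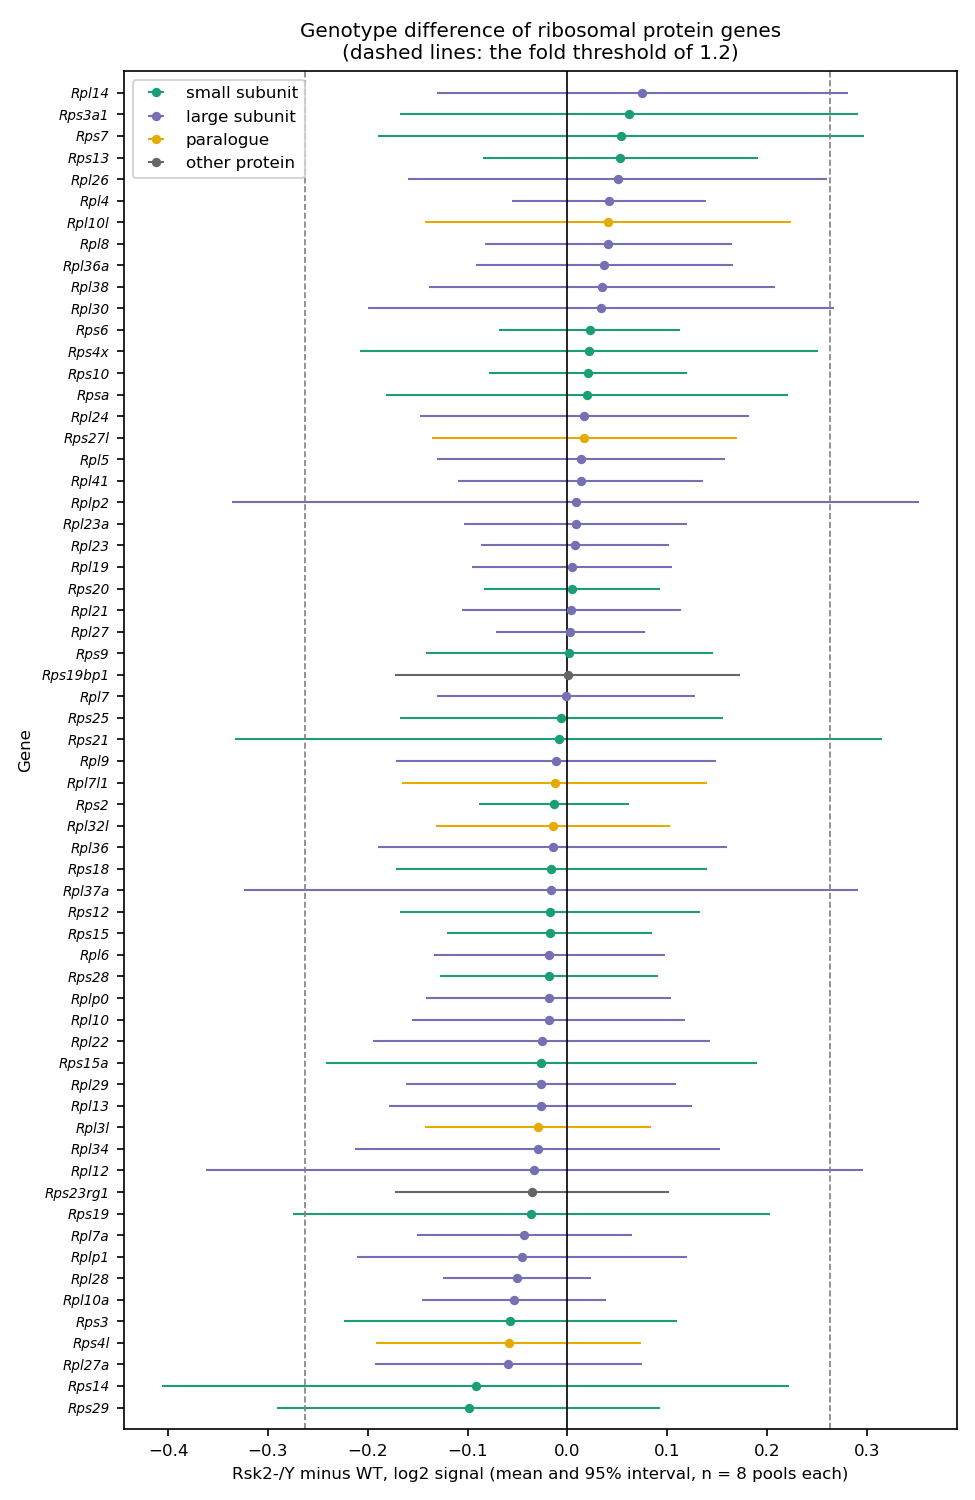
Genotype difference (*Rsk2-/Y* minus WT, log2 signal) of each of the 62 members, with its 95% interval from limma over 8 pools of each genotype; colours give the subunit or class and dashed lines the 1.2-fold threshold. All points lie between -0.099 and 0.075, every interval holds 0, and 51 intervals stay between the dashed lines. The fit has no series term, and with one 58 do.

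By subunit the picture was the same. The median genotype difference was -0.0086 over the 21 genes of the small subunit and -0.0015 over the 33 of the large subunit. The acidic stalk of the large subunit, which recruits elongation factors, gave -0.019 for *Rplp0*, -0.046 for *Rplp1* and 0.0084 for *Rplp2*. *Rpl5*, whose protein carries the small ribosomal RNA of the large subunit and binds MDM2, was at 0.014. The X-linked genes, present in 1 copy in these males like *Rps6ka3*, were at 0.021 (*Rps4x*), -0.019 (*Rpl10*) and 0.037 (*Rpl36a*), and the other X-linked gene listed, *Rpl39*, was not analysed here.

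Mutations of 5 members are known for developmental phenotypes in mice. *Rpl38* is the gene of the Tail-short mutant, in which the axial skeleton is mispatterned, and its genotype difference was 0.035. *Rpl24*, the gene of Belly spot and tail, was at 0.017. The dark-skin genes *Rps19* and *Rps20* were at -0.036 and 0.0044. *Rps7* was given above. Of 18 genes listed as orthologues of Diamond-Blackfan anaemia genes, in which patients can have craniofacial anomalies, 8 were tested, and they lay between -0.099 and 0.054.

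The markers of other cells were set beside these values, since a shift in the make-up of the germs would touch any average. Of 11 dental epithelium markers tested, 6 were lower in *Rsk2-/Y* at an unadjusted p under 0.05 and none passed the thresholds, with a median difference of -0.22. Their mean log2 signal ran from 9.31 to 10.1 in WT pools and from 9.17 to 9.74 in *Rsk2-/Y* pools. Of 12 skeletal muscle markers 3 were higher at that level, with a median of 0.71 and list means of 7.44 to 9.07 in WT and 7.39 to 9.90 in *Rsk2-/Y*. All 6 osteoblast markers lay above 0 and 2 were higher at that level, with a median of 0.27 and list means of 9.11 to 9.83 in WT and 9.27 to 10.5 in *Rsk2-/Y*. Of 4 Schwann cell markers 1 was lower, and of the markers of dental mesenchyme, cartilage, erythroid cells, endothelium, macrophages and neurons none reached that level. Over all probe sets tested, 1.18% were higher and 2.87% lower in *Rsk2-/Y* at that level. The part of the marker shifts in the members' values was not tested.

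Between the series of the sample names many of the same genes differed. In AZN pools 13 of 62 members were called higher and 2 lower, that is 21.0% and 3.2%. Among all probe sets tested, 5.95% were called higher and 10.6% lower. With each array centred on its own median these shares became 7.81% and 8.73%, and the members 15 higher and 2 lower. At a false discovery rate under 0.1 and any fold change, 34 members were higher and 7 lower, against 21.7% and 23.1% of all probe sets. The median series difference was 0.14 over the members and 0.016 over all probe sets, and 48 of 62 members lay above 0, as did 53.5% of all probe sets. In 13 members every AZN pool lay above every ABH pool and in 3 every one lay below, against 3.54% and 5.42% of all probe sets.

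**Figure D2:**
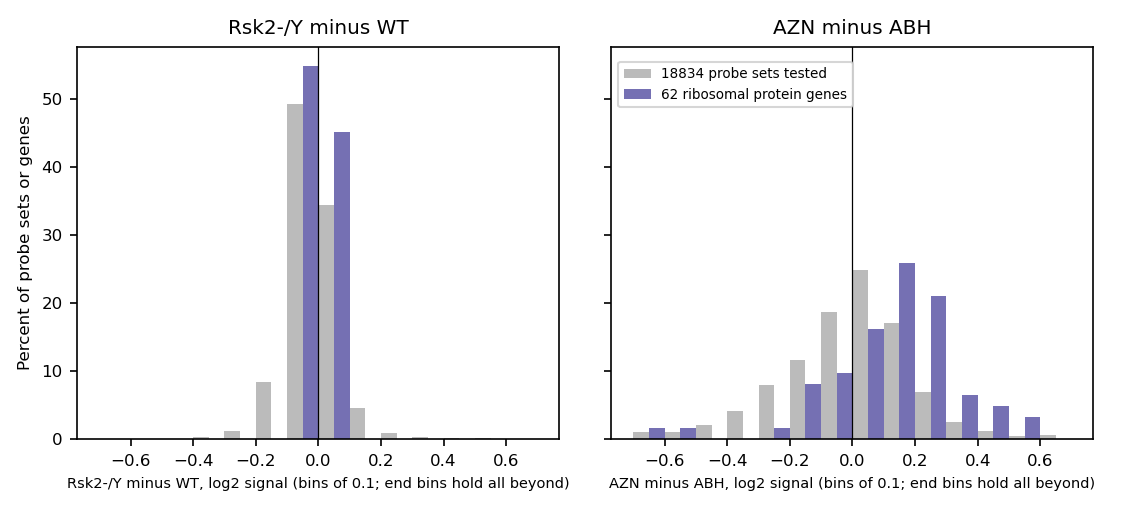
Shares of the 18834 probe sets tested (grey) and of the 62 members (violet) by their difference on the log2 scale, in bins of 0.1, for genotype (left) and series (right). For genotype all members lie in the bins on either side of 0, while for series the members peak between 0.1 and 0.2, where 25.8% of them and 17.1% of all probe sets lie.

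The genes with the largest rise in AZN were *Rpl37a*, *Rps14*, *Rps19*, *Rps7* and *Rps4x*. *Rpl37a*, a zinc-finger protein of the large subunit, ran from 11.4 to 11.8 in the 8 ABH pools (median 11.6) and from 11.9 to 12.3 in the 8 AZN pools (median 12.2). The series did not overlap. Its difference was 0.55 (standard error 0.066, adjusted p = 9.8e-06, limma), a fold change of 1.47. *Rps14*, lost from 1 chromosome in a human myelodysplastic syndrome, ran from 10.9 to 11.30 in ABH and from 11.36 to 11.9 in AZN, a difference of 0.51 (standard error 0.088, adjusted p = 0.00028, limma). Its AZN pools were spread within genotype, with the WT pools AZN_MolairesWT1 and AZN_MolairesWT2 at 11.8 and 11.9 and AZN_MolairesWT3 and AZN_MolairesWT at 11.4 and 11.4.

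*Rps19*, the first gene found mutated in Diamond-Blackfan anaemia, had ABH signals of 10.4 to 10.7 (median 10.5) and AZN signals of 10.8 to 11.1 (median 11.0). It rose by 0.43 (standard error 0.052, adjusted p = 1.2e-05, limma). *Rps7* ran from 11.96 to 12.17 in ABH and from 12.23 to 12.6 in AZN, a difference of 0.42 (standard error 0.061). The X-linked *Rps4x* ran from 12.0 to 12.2 in ABH and from 12.3 to 12.7 in AZN, a difference of 0.40 (standard error 0.053). For all 3 genes the lowest AZN pool lay above the highest ABH pool.

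*Rpsa*, whose protein is also a laminin receptor precursor and whose mutation in humans causes isolated asplenia, rose by 0.34. Its ABH pools ran from 11.7 to 11.96 and its AZN pools from 12.02 to 12.3, without overlap. The other called genes were *Rpl26* at 0.34, *Rpl14* at 0.33, *Rps3a1* at 0.31, *Rps3* at 0.29, *Rplp1* at 0.29, *Rps19bp1* at 0.28 and *Rpl38* at 0.28. Of the 13 genes called higher, 10 did not overlap between the series. *Rps6* rose by 0.11 (standard error 0.032, adjusted p = 0.0094, limma), under the fold threshold, with ABH pools of 12.93 to 13.03 and AZN pools of 13.05 to 13.12. Small as it was, this difference left no overlap.

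*Rplp2* and *Rps21* went the other way. *Rplp2*, a protein of the acidic stalk, ran from 7.23 to 7.72 in ABH (median 7.36) and from 6.60 to 6.91 in AZN (median 6.77), and fell by 0.63 (standard error 0.065, adjusted p = 2.6e-06, limma). Its stalk partners stood on the opposite side, *Rplp1* at 0.29 and *Rplp0* at 0.20. *Rplp2* was read from its only probe set, which has a cDNA clone record alone. Its mean log2 signal was 7.07, against 12.8 for *Rplp1* and 13.0 for *Rplp0*. Whether this probe set reads the main *Rplp2* mRNA is not given in the sources used here. *Rps21* ran from 9.68 to 10.2 in ABH and from 8.996 to 9.57 in AZN, and fell by 0.56 (standard error 0.079, adjusted p = 4.6e-05, limma). The other *Rps21* probe set was at 0.0010, and the mean of both gave -0.28. The X-linked *Rpl10* was lower by a smaller step, -0.23 (standard error 0.033, adjusted p = 4.9e-05, limma), with ABH pools of 13.12 to 13.19 above all AZN pools of 12.87 to 13.01.

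**Figure D3:**
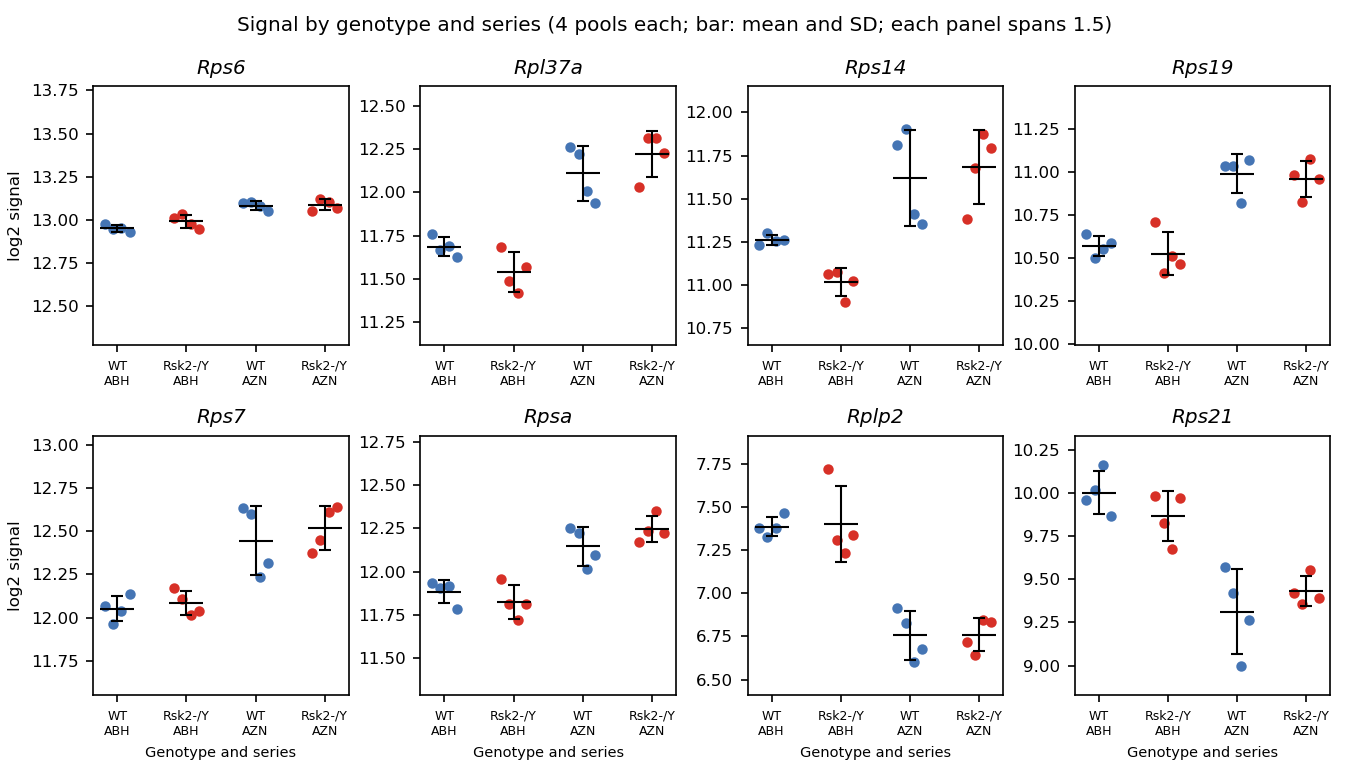
Log2 signal of 8 members in each pool, by genotype (WT blue, *Rsk2-/Y* red) and series, with the mean and SD of 4 pools; every panel spans 1.5 on the log2 scale. In all 8 genes the AZN pools lie wholly to one side of the ABH pools, above in 6 and below in *Rplp2* and *Rps21*, and the genotypes overlap within AZN.

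The probe sets behind these values bear on how far they stand for the gene. Of the 63 members, 59 were read from a probe set whose annotation holds a RefSeq mRNA, *Rps4l* from one with a RefSeq noncoding record, and *Rplp2*, *Rpl12* and *Rps3a1* from ones with only cDNA clone records. Several probe sets were present for 39 members, up to 14 for *Rps12*. For which copy of a gene each was designed is not given in the sources used here, and processed pseudogenes of near-identical sequence are common in this family, so probe sets of 1 gene are no independent measurements. In 31 of the 39 all tested probe sets lay on the same side in the series comparison. *Rpsa* gave 0.34 to 0.58 over 5 probe sets, *Rps4x* 0.34 to 0.40 over 5, *Rps7* 0.37 to 0.42 over 3, *Rpl38* 0.28 to 0.32 over 4 and *Rps14* 0.49 and 0.51. The exception among the called genes was *Rps21*, described above.

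By subunit, 7 of 21 genes of the small subunit were called higher in AZN and 1 lower (median difference 0.14), and 5 of 33 of the large subunit higher and 1 lower (median 0.11). Of the 5 mouse-mutant genes *Rps19*, *Rps7* and *Rpl38* were called higher, *Rpl24* was at 0.22 and *Rps20* at 0.067. All 8 Diamond-Blackfan genes tested lay above 0, and *Rps19*, *Rps7* and *Rpl26* were called higher. Of all 62 members, 48 lay above 0, 13 were called higher and 2 lower. Among all probe sets 53.5% lay above 0, with 5.95% called higher and 10.6% lower. *Rpl5* was at 0.11 and did not pass.

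The second copies were measured with their parent genes where both had a probe set. *Rpl10l*, a copy used in the testis, was at -0.15 between the series and *Rpl10* at -0.23. *Rpl7l1* was at 0.23 and *Rpl7* at -0.17, on opposite sides of 0 (adjusted p = 0.0011 and 0.0059, limma), both under the fold threshold. *Rps4l* was at 0.18 beside 0.40 for *Rps4x*, and *Rpl22*, whose copy *Rpl22l1* was not analysed here, was at 0.25. *Rps27l*, a p53 target, was at -0.021, and *Rpl3l*, the copy of striated muscle, at 0.068, with a mean log2 signal of 5.03 close to the minimum. None of the 6 paralogues tested was called in either comparison.

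Where promoter sequence was at hand, a run of at least 6 pyrimidines was sought within 20 bases of the annotated start on either side. It was found in 2 of the 11 genes called higher in AZN, *Rpl14* and *Rpl38*, and in 24 of 37 members not called. Over all promoters the share was 37.4%. *Rpl37a*, *Rps19* and *Rps7*, printed above, are among the called genes without such a run. The CCGGAAG motif was in 5 of the 11 and in 10 of the 37, beside 9.12% of all promoters. *Rplp2* and *Rps21*, called lower, held both. These shares describe few promoters and were not tested.

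The interaction asked whether the genotype difference itself differed between the series. No member was called, as was 0% of all probe sets. At an unadjusted p under 0.05 there were 2 of 62 members, beside 6.31% of all probe sets. *Rpl10l* was at -0.12 in ABH and 0.20 in AZN (*Rsk2-/Y* minus WT, limma, interaction adjusted p = 0.76). *Rpl37a* was at -0.15 in ABH and 0.11 in AZN (limma, interaction adjusted p = 0.78). The next, *Rpl22*, was at -0.13 and 0.075 and did not reach that level. *Rps14*, picked out after its values were seen, was at -0.25 in ABH (limma within ABH, adjusted p = 0.17). Its WT pools there lay at 11.24 to 11.30 and its *Rsk2-/Y* pools at 10.90 to 11.08 without overlap. The share of all probe sets without such overlap in ABH was not counted. In AZN *Rps14* was at 0.063 (limma, interaction adjusted p = 0.79). The median interaction was 0.061 over the members and 0.029 over all probe sets. The series difference had a median of 0.10 in WT pools alone and of 0.18 in *Rsk2-/Y* pools alone.

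Averaged over the 62 members, the pools spanned a narrow range. The mean log2 signal ran from 10.9 in the *Rsk2-/Y* pool ABH_16A to 11.2 in the WT pool AZN_MolairesWT1. By genotype it was 11.08 ± 0.085 in WT and 11.08 ± 0.094 in *Rsk2-/Y*, and by series 11.02 ± 0.044 in ABH and 11.14 ± 0.080 in AZN (SD, n = 8 each). AZN_MolairesWT3 at 11.016 and AZN_MolairesWT at 11.045 lay among the ABH pools, while AZN_MolairesWT1 and AZN_MolairesWT2 at 11.23 and 11.21 were the highest of all 16. Counted by gene, 7 of 62 members were above their own median in ABH_16A and 56 in AZN_MolairesWT1.

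**Figure D4:**
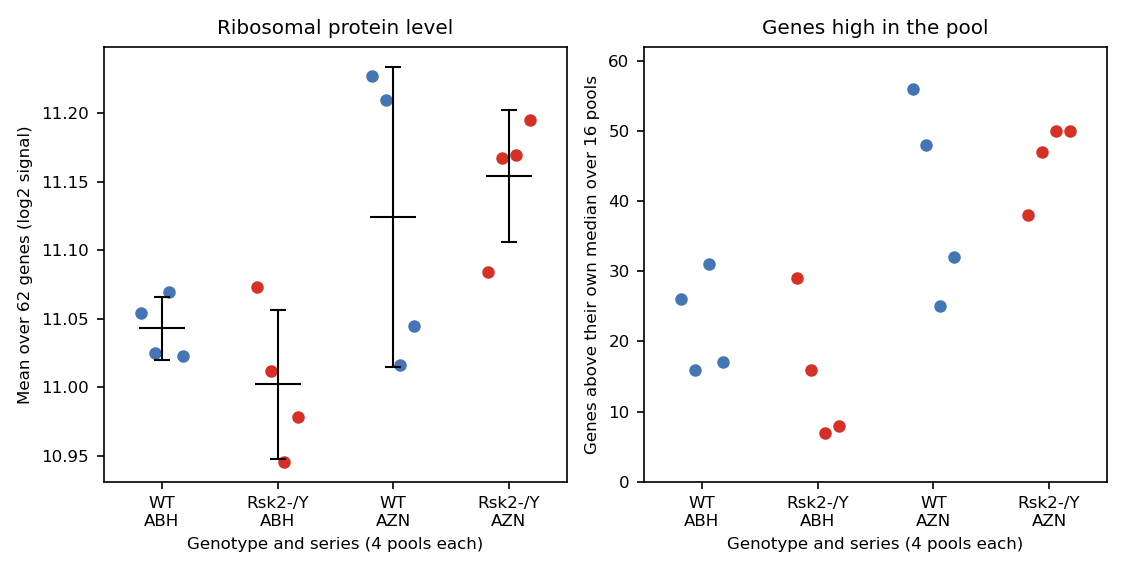
Left, the mean log2 signal over the 62 members in each pool, with the mean and SD of each genotype and series; right, the number of members above their own median over the 16 pools. WT is blue and *Rsk2-/Y* red, 4 pools in each column. The ABH pools lie between 10.9 and 11.1 on the left, and the WT pools of AZN split into a high and a low pair.

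The split among the AZN WT pools did not run alike in every gene. *Rpl12*, a protein at the base of the stalk, varied most of all members, with an SD of 0.36 within genotype and series, and followed the split. It was at 8.27 and 8.91 in AZN_MolairesWT1 and AZN_MolairesWT2 and at 7.93 and 7.58 in AZN_MolairesWT3 and AZN_MolairesWT. *Rpl10* did not follow it, with 12.95 and 12.90 in the first pair and 13.01 and 12.92 in the second. Mitochondrial ribosomal proteins, encoded by separate genes, had list means of 8.91 and 8.83 in AZN_MolairesWT1 and AZN_MolairesWT2 and of 8.71 and 8.86 in AZN_MolairesWT3 and AZN_MolairesWT. Erythroid markers had list means of 8.24 and 8.06 in the first pair and of 7.50 and 7.62 in the second, and their part in the split was not tested.

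Within genotype and series the members had a lower median SD than all probe sets and moved together. The median SD was 0.091 over the members and 0.12 over all probe sets tested. These were not matched for signal. The mean over the members ran from 10.9 to 11.2 by pool, while the median over all probe sets tested ran from 7.87 to 7.98. Whether the lower SD is more than a matter of signal level was not tested. Taken pair by pair, the members' deviations from the means of their genotype and series had a mean correlation of 0.35 over the 16 pools, beside 0.016 over all probe sets, and 82.2% of 1891 pairs were positive. These correlations share arrays and normalisation, and probe sets of near-identical genes can share signal. They are given as a description.

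**Figure D5:**
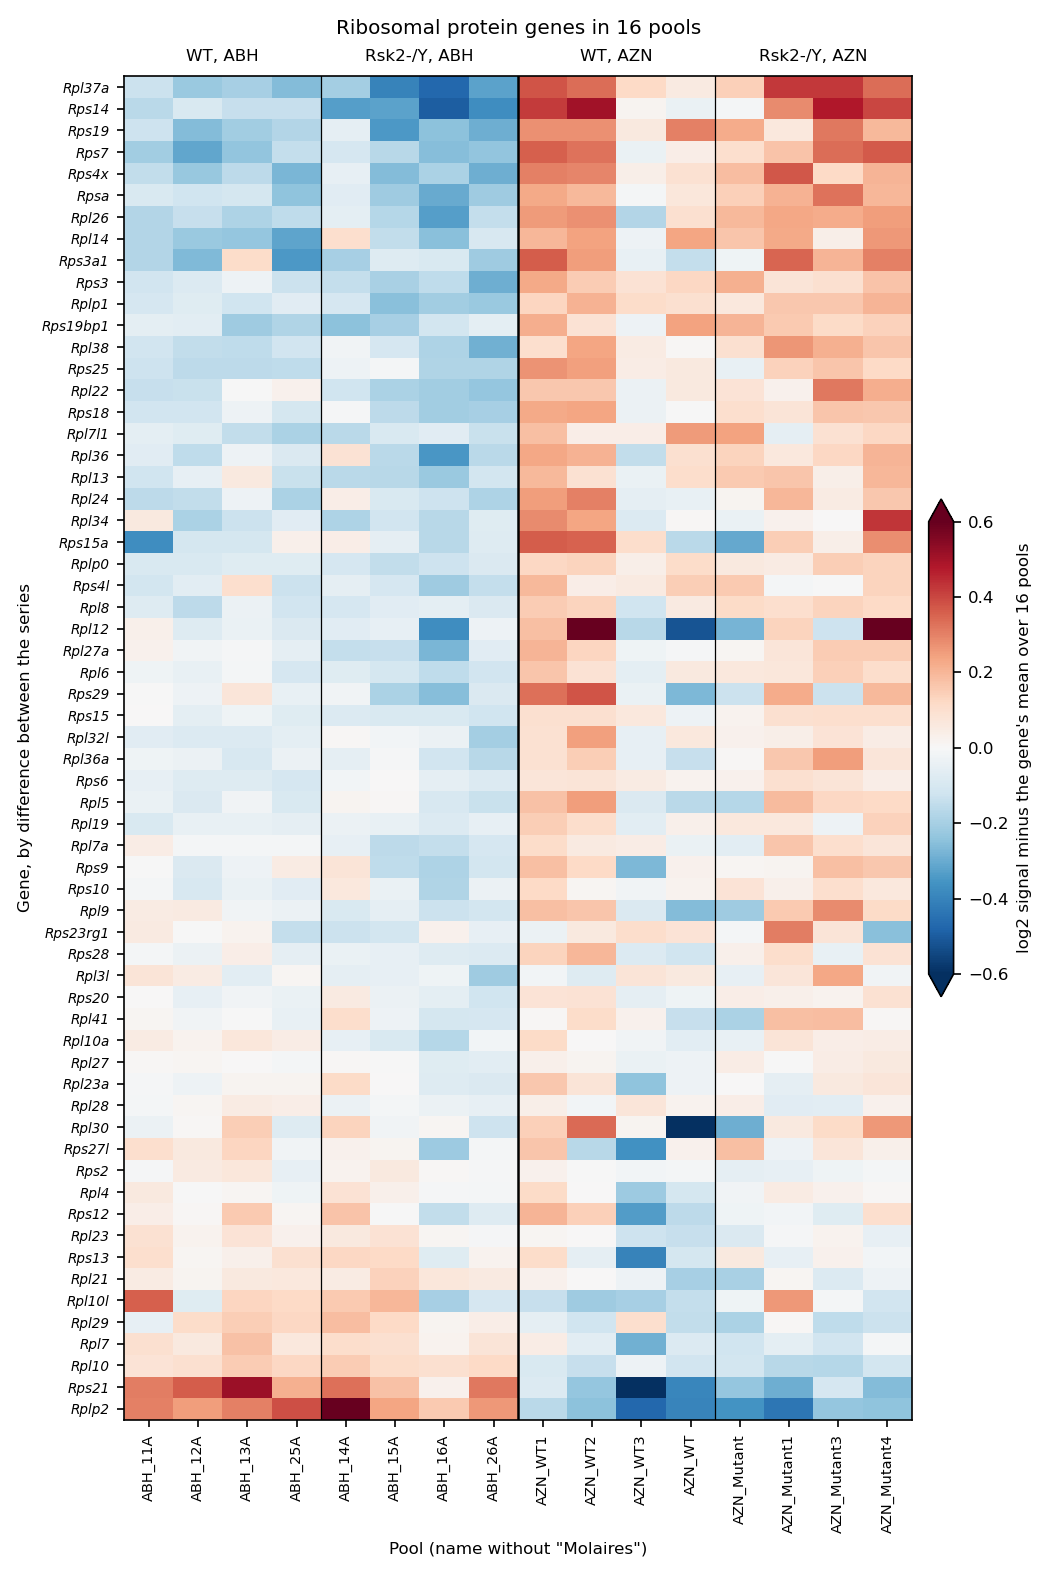
Log2 signal of each of the 62 members minus its mean over 16 pools, with pools in columns by series and genotype and genes ordered by their series difference; the colour scale ends at 0.6 in either direction. Genes at the top are low in the ABH pools and high in AZN, *Rplp2* and *Rps21* at the bottom are the reverse, and the columns AZN_WT3 and AZN_WT are paler at the top than AZN_WT1 and AZN_WT2.

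Other genes of translation were listed for comparison, and none of them was called by genotype. Of 12 TOP mRNAs outside the ribosome tested, 2 were called higher in AZN and none lower: *Eef1b2*, an exchange factor of elongation, at 0.57, and *Eif3h*, an initiation factor subunit, at 0.30, with a list median of 0.11. The list also held *Eef1a1* at 0.11 and *Pabpc1* at -0.17. Of 25 initiation factors 2 were called higher (*Eif3h* again and *Eif4a2* at 0.31) and none lower, with a median of -0.034. For both lists the shares over all probe sets tested were 5.95% called higher and 10.6% lower. *Fau*, which encodes a small subunit protein under another name, was at -0.11.

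Of 40 ribosome biogenesis genes tested, 5 were called higher in AZN and 3 lower, with a median of -0.00095, beside the 5.95% and 10.6% of all probe sets called higher and lower. *Mrto4* at 0.62, *Emg1* at 0.60, *Nhp2* at 0.46, *Ltv1* at 0.40 and *Nop10* at 0.40 were higher, and *Rrs1* at -0.52, *Dkc1* at -0.41 and *Utp20* at -0.36 lower. None of 14 genes of RNA polymerase I was called. Of 77 mitochondrial ribosomal proteins, 17 were called higher and 7 lower, beside 13 and 2 of the 62 members. Calls higher in AZN were thus not particular to the cytosolic genes. The mitochondrial list had a median series difference of 0.049 and a median genotype difference of -0.029. Of 14 genes of S6 and mTOR signalling, *Akt1s1*, an inhibitor within the mTOR complex, was called higher at 0.28, and *Rictor* at -0.46 and *Pdcd4*, a translation inhibitor degraded through S6 kinase, at -0.58 lower.

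Markers of other cell types moved with the series too. Of 12 skeletal muscle markers 4 were called higher in AZN (list means 7.39 to 9.59 in ABH and 7.94 to 9.90 in AZN), of 6 erythroid markers 3 (6.84 to 8.43 and 7.50 to 8.79) and of 6 osteoblast markers 2 (9.11 to 9.68 and 9.43 to 10.5). Of 11 dental epithelium markers 4 were called lower and *Krt15* higher (9.62 to 10.1 and 9.17 to 10.0), and of 9 dental mesenchyme markers 2 lower and 1 higher (10.4 to 10.7 and 10.2 to 10.8). Of 7 neuron markers 2 were called higher, and of 4 Schwann cell markers 1. Of 7 cartilage markers 1 was called higher and 1 lower, as were 1 and 1 of 7 endothelium markers. No macrophage marker was called. Beside these counts, 5.95% of all probe sets tested were called higher and 10.6% lower. For each of these lists the means of the series overlapped, and every marker counted here passed the signal minimum. Their part in the series difference of the members was not tested, and the series cannot be tied to a tissue, litter or laboratory step from the labels.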

How the data were processed

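Genotypes of the 16 pools were taken from their labels. The authors deposited 1 log2 signal for each probe set and pool, which according to the submitters' processing notes came from Affymetrix Expression Console 1.3.1.187 with RMA. This method removes background, scales the arrays to each other and combines the probes of a set, and no further normalisation was applied in the main comparisons. Because RMA scales the arrays to each other, a change of all mRNA together would not show. The precision is limited by the number of arrays, which hold no counts. The raw arrays were not used here. The array medians ran from 6.74 to 6.94, correlations between arrays from 0.976 to 0.997, and no pair of arrays held identical values.

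Of 35556 probe sets, 21789 carry 1 gene symbol in the platform's annotation, 1621 several and 12146 none. The probe sets with 1 symbol and a signal above 5 in at least 1 pool were tested, 18834 in all. A gene was read from its probe set with the highest mean over the 16 pools. Differences were fitted with limma 3.58.1 in R 4.3.3 (lmFit, then eBayes), with two-sided p-values adjusted by Benjamini-Hochberg over all 18834. A difference was called where the adjusted p was under 0.1 and the fold over 1.2 (0.26 on the log2 scale), the limits that the study used. The study reports genes that differ by genotype at these limits, whereas no probe set tested here was called. It used other software, and its array methods do not name the test behind the p-values. The genotype comparison had no covariate, the series comparison had a term for genotype, and the interaction was the genotype difference in AZN minus that in ABH. The fits were tested on simulated data with independent noise, and the genotype simulation held no series difference. The power of the genotype fit in these arrays was therefore not measured. The labels give no litters, and p-values measure the spread between these pools. They give 150 ng of RNA per array, where the methods name another amount.

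The members and all lists were chosen with earlier results of these data known. Named genes are *Rps6*, *Rpsa*, the stalk genes, *Rpl5*, the X-linked genes, genes of mouse mutants, paralogues and their parent genes. They also include the 3 largest genotype differences in each direction, up to 5 series calls in each direction and the 3 smallest interaction p-values. Other called members and genes of other lists were named after their values were seen. Alternatives were other scalings, filters, array weights, the mean of a gene's probe sets and an ordinary t-test. Further ones were the series as a block, each series or genotype alone, and leaving out pools. Promoter sequences came from RefSeq (GRCm38.p6). Figures were drawn with matplotlib 3.10.9 in Python 3.11.15.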

Additional observations from a re-analysis of the deposited data

How the results depend on the processing

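The genotype comparison called 0 members under every alternative run, with a median difference from -0.034 (ABH pools only) to 0.024 (AZN pools only). The median series difference stayed above 0 throughout. Of members called higher in AZN it counted 21 after cyclic loess normalisation (23 called in all) and 8 in WT pools only. All 15 calls remained in each other alternative apart from WT pools only, which kept 9, and leaving out ABH_26A or both unnumbered AZN pools, which kept 14 each. The latter alternative was chosen after seeing the data. The replicate block on the numbers 1 and 3, which WT and *Rsk2-/Y* names of AZN share, gave 0 calls and a median genotype difference of 0.00017, with an estimated correlation of 0.35 within blocks. Deviations of same-numbered pools correlated at -0.034 and -0.013, the labels name no litters, and whether the numbers mark pairs cannot be told. Those of the unnumbered AZN pools correlated at 0.68. With 8 pools a genotype, changes inside the intervals given above could not be told from 0. Dixon's test was run only on the named genes and the mean over the members, by genotype, and flagged no pool in 58 groups of values. Each group held both series, whose difference widens the range and can hide a pool that stands apart. The other members were not examined in this way.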
